A study of Mus musculus with 15 samples.

Results

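Glycerolipid acyltransferases, the lipins and glycerol-3-phosphate dehydrogenase 1 were followed as a group of 10 genes, Gpd1, Gpam, Agpat2, Agpat3, Lpin1, Lpin2, Lpin3, Mogat1, Dgat1 and Dgat2, out of 19938 genes measured in mouse liver. Members were chosen by name, with earlier results of these data known. Each was read by the probe set that carried its symbol alone, and each of the 10 had a single such probe set, so every member was measured. These enzymes build triglyceride and phospholipid on a glycerol backbone. Glycerol 3-phosphate, which Gpd1 can supply from a glycolytic intermediate, is acylated in turn by Gpam and the Agpat enzymes to phosphatidic acid, the lipins remove its phosphate to give diacylglycerol, and the Dgat enzymes add the last fatty acid. Mogat1 enters the pathway lower down, by acylating monoacylglycerol directly to diacylglycerol. In liver this route serves lipid storage and the assembly of very low density lipoproteins.

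The study crossed the loss of the nuclear receptor PPARα, the sensor of fatty acids and of peroxisome proliferators, with exposure to the plasticizer di(2-ethylhexyl) phthalate (DEHP). DEHP went to 3 PPAR(alpha)-null and 4 wild-type mice, and corn oil alone to 4 null and 4 wild-type mice, with 1 array per animal. DEHP was dosed by gavage at 1150 mg/kg/day in corn oil on each of 4 days. All were males aged 7.5 months, give or take 2.5 weeks. Nulls carried the Pparatm1Gonz allele on 129S4/SvJae and the wild-type mice were 129S1/SvlmJ, so genotype and substrain cannot be told apart. Animals go by KO for null or WT for wild type and their labelled number, with KO-121 to KO-123 and WT-56 to WT-59 dosed with DEHP. Values are linear array intensities as deposited, for which the median probe set of an array read 44.4 to 47.5. Differences are log2 values ± standard error from limma, and a gene is called where its p was below 0.05 after Benjamini-Hochberg adjustment across the 19938 genes. Levels of different genes are not compared, since probe sets differ in brightness.

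Markers of the tissue were present and the targeted gene was lower in the nulls. All 6 measured hepatocyte markers, albumin among them, had mean log2 intensities of 12.69 to 13.91. Ppara read 554, 617 and 558 in null mice given DEHP and 508, 606, 549 and 517 in null mice given corn oil. In wild-type mice it read 936, 773, 1200 and 751 with DEHP and 798, 932, 943 and 849 with corn oil. Every null thus lay below every wild-type animal. The difference was -0.69 ± 0.12 under corn oil (adjusted p = 0.00645) and -0.64 ± 0.13 under DEHP (adjusted p = 0.00422), which leaves a signal in the nulls at the probe set used. Whether that probe set lies in the deleted stretch of the gene was not examined here.

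Mogat1 was the member that responded to DEHP, and its response was seen in wild-type mice. The stretch upstream of its transcription start is shown because PPARα binds, as a pair with the retinoid X receptor, to direct repeats of a 6-letter half-site parted by 1 base. That element was searched as AGGTCA, any 1 base and AGGTCA again, on both strands, in the 250 bases before each annotated start in RefSeq (build GRCm38.p6). No window of a member held an exact match, as did 0.0335% of all 32851 windows. With up to 2 mismatches in the 12 defined letters, 3.24% of all windows held a match, and among the 11 windows available for 7 members (Mogat1, Gpam, Agpat2, Agpat3, Lpin1, Lpin2 and Lpin3) the single match was in Mogat1. With up to 3 mismatches 21.3% of all windows matched, including those of Mogat1 and Agpat2. The Mogat1 window is printed 5′ to 3′ on the plus strand, chr1:78510810-78511059, with the matching letters, chr1:78511009-78511021, in capitals. They run from 51 to 39 bases before the start.
Mogat1: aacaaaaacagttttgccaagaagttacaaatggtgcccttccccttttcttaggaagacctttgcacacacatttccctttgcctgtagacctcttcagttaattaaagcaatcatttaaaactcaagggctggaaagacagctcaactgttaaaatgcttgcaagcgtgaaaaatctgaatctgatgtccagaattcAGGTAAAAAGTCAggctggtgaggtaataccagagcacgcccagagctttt
A match of letters describes the sequence and says nothing of binding, which was not measured here.

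**Figure D1:**
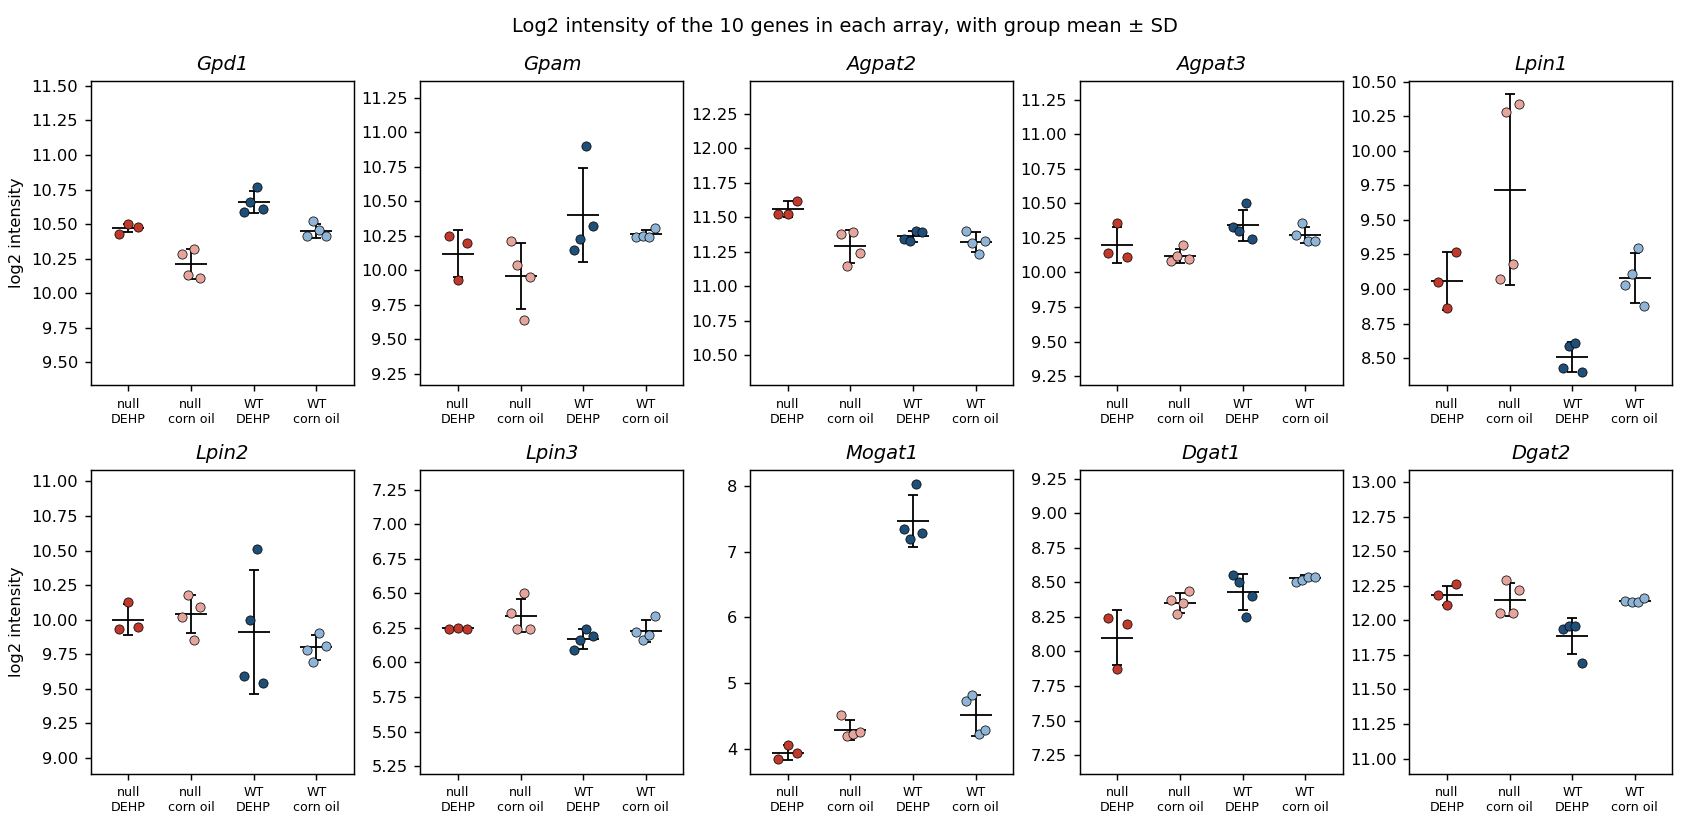
Log2 intensity of each of the 10 genes (vertical axis) in every array (points), by group (horizontal axis), with the group mean and SD as a bar and whiskers; all panels but that of Mogat1 span the same number of log2 units. The 4 wild-type mice given DEHP stand at 7.19 to 8.04 for Mogat1, above all other animals, and null controls KO-116 and KO-118 stand at 10.28 and 10.34 for Lpin1.

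Mogat1, probe set 10347741, read 164, 146, 263 and 157 in wild-type mice given DEHP, against 26.5, 28.3, 18.7 and 19.4 in wild-type mice given corn oil. The lowest DEHP animal was far above the highest control. In log2 units the means were 7.47 ± 0.39 with DEHP and 4.51 ± 0.31 with corn oil (SD, n = 4 each). The rise was 2.96 ± 0.17, or 7.76-fold (95% confidence interval 2.60 to 3.31 on the log2 scale, adjusted p = 9.17e-08), the difference ranking 8 in size among all genes. It was called in all 8 fits that left out 1 animal of the contrast, at 2.77 to 3.06. Corn oil values lay below the median probe set of their arrays, and with 16 added to every intensity before log2 the rise was 2.31 (adjusted p = 1.39e-07).

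In null mice Mogat1 read 14.3, 16.6 and 15.3 with DEHP, against 22.8, 18.2, 18.8 and 19 with corn oil. These groups did not overlap either, with the DEHP animals lower, but the difference of -0.35 ± 0.18 was not called (adjusted p = 0.459). The response in nulls minus that in wild-type mice was -3.31 ± 0.25 (adjusted p = 1.05e-05), rank 5 in size among all genes and called in all 15 fits that left out 1 animal. With the offset of 16 it was -2.50 (adjusted p = 2.15e-05). Under DEHP the null mice were thus at 0.0867 of the wild-type level (-3.53 ± 0.18, adjusted p = 8.22e-09), and with the offset the log2 difference was -2.62 (adjusted p = 3.42e-08). Under corn oil, where both genotypes were dim, the difference was -0.22 ± 0.17 (adjusted p = 0.671).

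The genes whose pattern over the 15 arrays was most like that of Mogat1 were Serinc2 (Pearson r = 0.989), Hprt (0.978), Decr1 (0.969), Ehhadh (0.968) and Vnn1 (0.964). These arrays share the split between DEHP-treated wild-type mice and the rest, and after each group's mean was removed r was 0.862 for Serinc2 and 0.488 to 0.755 for the other 4. Serinc2, a serine incorporator family gene, rose by 2.29 in wild-type mice (adjusted p = 7.2e-07) and was highest in WT-58, at 808, as was Mogat1. Decr1 and Ehhadh are enzymes of mitochondrial and peroxisomal fatty acid oxidation, and Vnn1 is a pantetheinase. Hprt, a purine salvage enzyme often used as a reference transcript, read 900, 955, 1060 and 957 in wild-type mice given DEHP, against 636, 636, 634 and 619 with corn oil. It rose by 0.61 (adjusted p = 0.000125) and read -0.02 in null mice (adjusted p = 0.943).

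Markers of tissues that could be carried over with liver are given beside these values, and their part in the Mogat1 rise was not tested. Of 7 measured adipocyte markers 1 was called as higher in DEHP-treated wild-type mice (2.29% of all genes), the fatty acid binding protein gene Fabp4 (1.68 ± 0.19, adjusted p = 0.000113). All 7 differences were above 0, with a median of 0.05, and the summed intensity of the list was 356 to 551 with DEHP, against 315 to 323 with corn oil. That sum includes Fabp4, the 1 of 7 with an unadjusted p below 0.05, against 16.8% of all genes. Of the 7 markers 5 had a mean level below that of the median gene. Fabp4 read 111, 183, 250 and 193 with DEHP, against 56.4, 54.4, 53.6 and 56.5 with corn oil. The defining adipocyte gene Adipoq read 8.42, 26, 8.42 and 9.08 with DEHP, against 9.06, 7.34, 9.03 and 7.8 with corn oil. Of 4 pancreatic acinar and 5 enterocyte markers limma called 0 after DEHP in wild-type mice. An unadjusted p below 0.05 was held by 2 of the acinar and 0 of the enterocyte genes, against 16.8% of all genes. Their summed intensities were 195 to 262 with DEHP against 212 to 238 with corn oil for the acinar list, and 1490 to 1910 with DEHP against 1580 to 1750 with corn oil for the enterocyte list.

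The diacylglycerol acyltransferases, which make triglyceride, gave no call with DEHP in either genotype. Dgat2, probe set 10565775, read 3920, 3980, 3990 and 3310 in wild-type mice given DEHP, against 4530, 4490, 4480 and 4570 with corn oil. No animals overlapped, but the difference of -0.25 ± 0.07 was not called (adjusted p = 0.0685). It was called at about the same size in 5 of the other settings tried (-0.25 to -0.31, adjusted p = 0.0244 to 0.0421), among them quantile normalization and an intensity trend in the variance. In null mice Dgat2 read 4650, 4410 and 4890 with DEHP, against 4250, 4990, 4250 and 4790 with corn oil, and the difference was 0.03 ± 0.08 (adjusted p = 0.931). The difference between these responses was 0.28 ± 0.11 (adjusted p = 0.254), so that unequal responses were not shown.

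Dgat1, an unrelated enzyme that catalyses the same step, read 374, 363, 304 and 338 in wild-type mice given DEHP, against 363, 366, 373 and 373 with corn oil (-0.10 ± 0.08, adjusted p = 0.609). In null mice it read 302, 235 and 293 with DEHP, against 330, 308, 326 and 346 with corn oil. Here the groups did not overlap, with a difference of -0.25 ± 0.09 (adjusted p = 0.223). Without KO-122, the lowest animal, it was -0.14 (adjusted p = 0.655).

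Gpd1, probe set 10426812, was higher with DEHP by a small amount in both genotypes without passing the test over all genes. It read 1380, 1450 and 1430 in null mice given DEHP, against 1250, 1120, 1280 and 1100 in null mice given corn oil (0.26 ± 0.07, adjusted p = 0.0926). In wild-type mice it read 1550, 1610, 1750 and 1570 with DEHP, against 1360, 1470, 1400 and 1360 with corn oil (0.21 ± 0.06, adjusted p = 0.0814). Null mice were lower than wild-type mice under corn oil (-0.24 ± 0.06, adjusted p = 0.0938) and under DEHP (-0.18 ± 0.07, adjusted p = 0.102). Gpd1 was the single member without overlap in all 4 of these comparisons, which share their groups. Each comparison alone was without overlap in 7.72% to 20.5% of all genes, and the share of all genes without overlap in all 4 was not counted. The interaction was 0.05 ± 0.09 (95% confidence interval -0.14 to 0.25), an interval that holds responses of equal size. With an intensity trend in the variance the first 3 differences kept their sizes and were called, at adjusted p = 0.0452, 0.0445 and 0.0473. No fit that left out 1 animal called any of these 3, with adjusted p up to 0.315, 0.201 and 0.217. Without null controls KO-116 and KO-118, which read 1120 and 1100, the interaction was -0.04 ± 0.09.

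Acylation of glycerol 3-phosphate and of lysophosphatidic acid gave no call with DEHP. Gpam, the mitochondrial glycerol-3-phosphate acyltransferase, read 1220, 974 and 1170 in null mice given DEHP, against 1180, 1050, 799 and 992 with corn oil. In wild-type mice it read 1130, 1200, 1910 and 1280 with DEHP, against 1210, 1210, 1210 and 1270 with corn oil. Only animal WT-58 left the narrow range of the others, and without it the wild-type difference of 0.14 ± 0.14 (adjusted p = 0.71) was -0.03. Agpat2, the acyltransferase whose human gene is mutated in a form of congenital lipodystrophy, read 2930, 2950 and 3150 in null mice given DEHP, against 2670, 2270, 2680 and 2420 with corn oil. The groups did not overlap (0.27 ± 0.07, adjusted p = 0.0938), while in wild-type mice the difference was 0.05 ± 0.06 (adjusted p = 0.796). Without KO-116 and KO-118 the difference in null mice was 0.17 (adjusted p = 0.37), and after quantile normalization 0.18 (adjusted p = 0.261). The interaction for Agpat2 was 0.22 ± 0.09 (adjusted p = 0.321). Agpat3, a related acyltransferase, ran from 1080 to 1450 over all 15 arrays, with differences after DEHP of 0.08 ± 0.08 in null and 0.07 ± 0.07 in wild-type mice (adjusted p = 0.735 and 0.713).

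**Figure D2:**
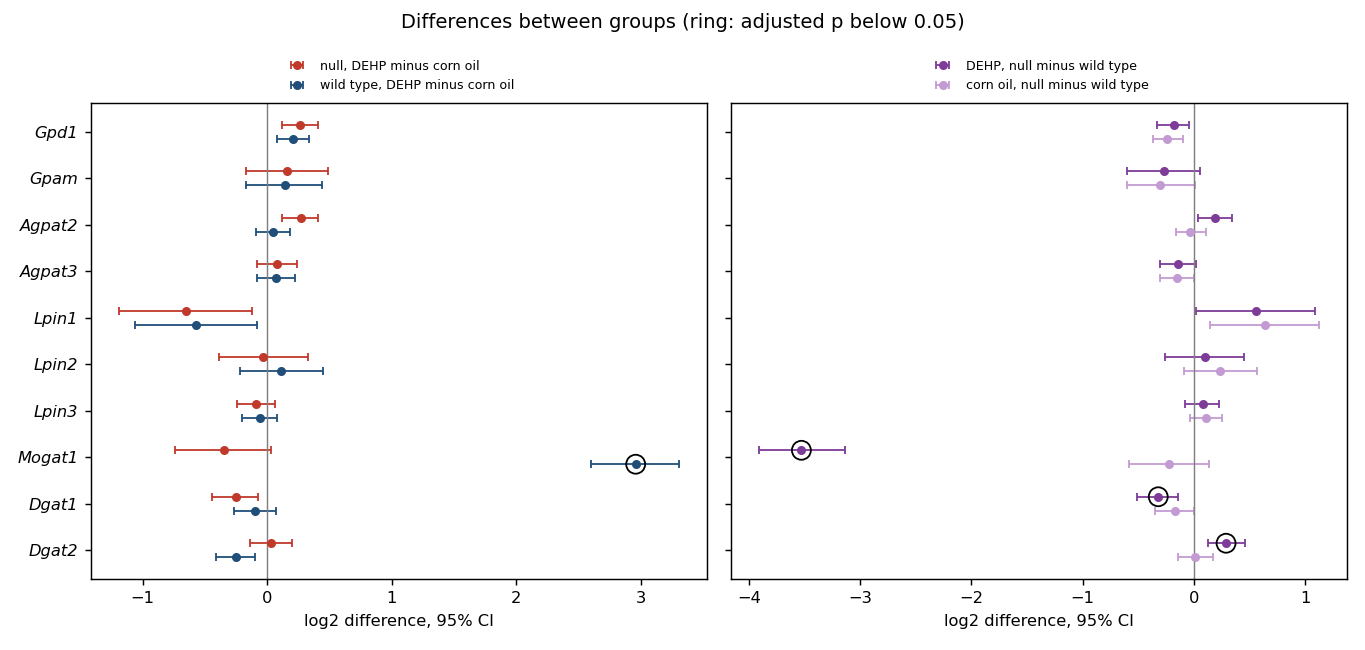
Log2 differences of the 10 genes (points) with 95% confidence intervals from limma (whiskers), for DEHP minus corn oil in each genotype (left) and null minus wild type under each dosing (right); rings mark an adjusted p below 0.05. Mogat1 stands at 2.96 in wild-type mice after DEHP and at -3.53 between genotypes under DEHP, and Dgat1 and Dgat2 carry the other rings, at -0.32 and 0.29.

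Lpin1 varied more among animals of one group than any other member. Lipin 1 is a phosphatidate phosphatase that can also act as a transcriptional coactivator of PPARα, and its transcript is known to follow fasting, glucocorticoids and time of day. It read 344, 386, 390 and 338 in wild-type mice given DEHP, against 523, 552, 630 and 470 with corn oil, groups that did not overlap. In null mice it read 531, 466 and 619 with DEHP, against 539, 1240, 578 and 1300 with corn oil. Null controls KO-116 and KO-118 were thus above every other animal, and the SD of the null controls, 0.69 in log2 units, exceeded that of 99.8% of all genes in that group.

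Since all groups share 1 estimate of the spread, these 2 null controls bear on every Lpin1 test. With all 15 arrays the difference after DEHP was -0.57 ± 0.23 in wild-type mice (adjusted p = 0.218) and -0.65 ± 0.25 in null mice (adjusted p = 0.276), and neither was called. Without KO-116 and KO-118, an alternative chosen after the values were seen, the wild-type difference was -0.57 ± 0.10 (adjusted p = 0.00667) and that in null mice -0.06 ± 0.13 (adjusted p = 0.91). A model of the wild-type animals alone gave -0.57 ± 0.09 (adjusted p = 0.00949). Null mice given DEHP were above wild-type mice given DEHP without overlap, by 0.56 ± 0.25 (adjusted p = 0.192), a difference that was called without these 2 controls (adjusted p = 0.00508). Under corn oil nulls minus wild-type mice gave 0.64 ± 0.23 with all arrays (adjusted p = 0.243) and 0.05 ± 0.12 without these 2 (adjusted p = 0.943). The interaction, -0.08 ± 0.34 with all arrays (adjusted p = 0.948), was 0.51 ± 0.16 without them (adjusted p = 0.167).

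The gene most like Lpin1 over the 15 arrays was Hlf (r = 0.926, and 0.892 within groups), a transcription factor of the family of Dbp that cycles with the clock. Hlf read 341 and 342 in KO-116 and KO-118, and 261 to 318 in the other 13 animals. Values of Dbp and of the clock activator Arntl (Bmal1), a pair chosen after the Lpin1 values were seen, are given for the same animals. Dbp read 1040 and 912 in KO-116 and KO-118, against 666 and 370 in the other null controls, while Arntl read 69.4 and 91.3, against 111 and 157. Wild-type animal WT-58, dosed with DEHP, had a Dbp of 1000 and an Arntl of 62.3, and its Lpin1 of 390 was near the 386 of WT-57. KO-122, dosed with DEHP, had a Dbp of 754, an Arntl of 95.1 and the lowest Lpin1 of the nulls, 466. WT-55 had the highest Dbp of the wild-type controls, 799, and their lowest Lpin1, 470. Animals thus differed in clock genes within groups, the labels give no hour of collection, and the part of these differences in the Lpin1 values was not tested.

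**Figure D3:**
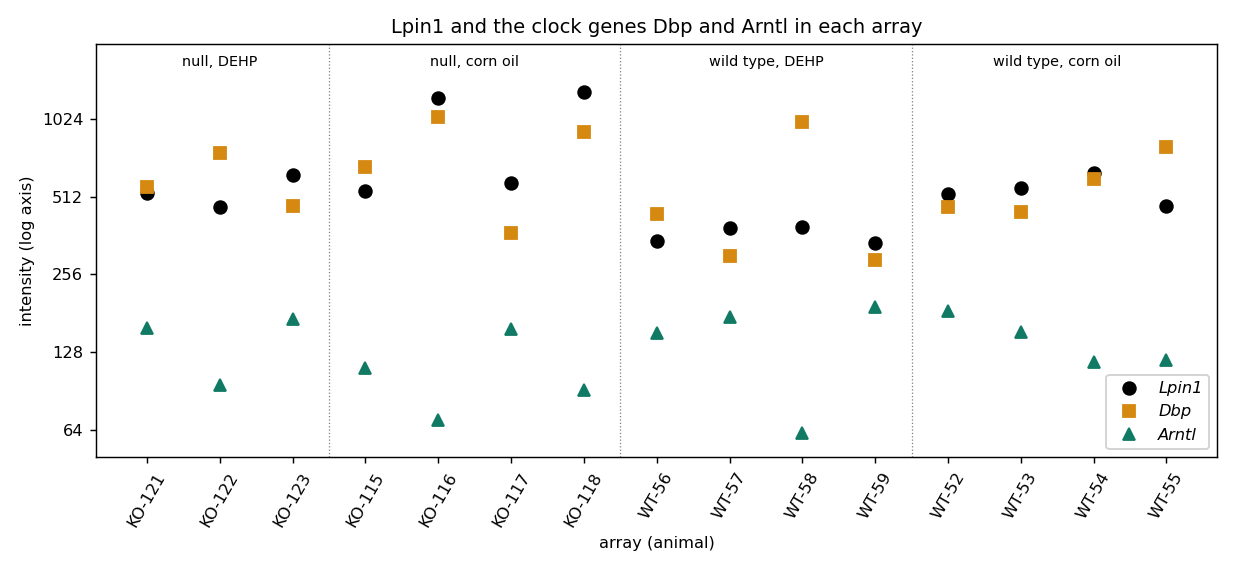
Intensity of Lpin1 (circles), Dbp (squares) and Arntl (triangles) on a log axis in each of the 15 arrays, ordered by group. KO-116 and KO-118 have the highest Lpin1, 1240 and 1300, with high Dbp and low Arntl, and WT-58 has high Dbp and the lowest Arntl, 62.3, with a Lpin1 of 390.

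Lpin2 and Lpin3, which share the phosphatase activity, were not called in any comparison. Lpin2 read 769, 1020, 1460 and 746 in wild-type mice given DEHP, against 882, 826, 953 and 900 with corn oil, so that the DEHP animals lay on both sides of the controls. The difference was 0.11 ± 0.16 (adjusted p = 0.802), and -0.09 without WT-58. In null mice Lpin2 ran from 977 to 1120 with DEHP, against 926 to 1160 with corn oil (-0.03 ± 0.17, adjusted p = 0.964). Lpin3 stayed in a narrow range, 67.9 to 90.7 over all arrays, and 5 arrays of 3 groups carried the identical deposited value of 75.83. Its differences after DEHP were -0.09 ± 0.07 in null and -0.06 ± 0.07 in wild-type mice (adjusted p = 0.668 and 0.756).

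Animal WT-58 was the highest of the 4 DEHP-treated wild-type mice in 9 of the 10 members, and the lowest in Dgat1. Over all genes it was highest in 32.5% and lowest in 21.7%. The next animal of its group had 164 against its 263 in Mogat1, 1280 against its 1910 in Gpam and 1020 against its 1460 in Lpin2, but 3980 against its 3990 in Dgat2 and 386 against its 390 in Lpin1. Without it Mogat1 rose by 2.77. Null controls KO-116 and KO-118, a pair picked out by their Lpin1 values, lay together on one side of KO-115 and KO-117 in 6 of 10 members. They were above in Dgat2, Lpin1 and Lpin2 and below in Agpat2, Lpin3 and Gpd1. Of all genes 31.7% split this way, a share that is no like measure, since Lpin1 set the choice and is among the 6. Both animals carried the repeated Lpin3 value of 75.83.

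Counted over the group, 1 of 10 members was called after DEHP in wild-type mice, where 3.86% of all genes were (2.29% higher and 1.57% lower), with a median difference of 0.058 over the members and -0.015 over all genes. An unadjusted p below 0.05 was held by 4 members and by 16.8% of all genes. In null mice limma called 0 of 10, where 0.471% of all genes were called (medians -0.003 and 0.014), and 4 members had an unadjusted p below 0.05, as did 12.3% of all genes. An intensity trend in the variance, a filter on dim genes or an offset of 16 each called 2, Agpat2 and Gpd1. The share of all genes called under those settings was not counted. Groups did not overlap in 4 of 10 members in wild-type mice (11.9% of all genes) and in 4 of 10 in null mice (9.99%). The interaction was called for 1 of 10 members, Mogat1, and for 0.898% of all genes. An unadjusted p below 0.05 in that test was held by 3 members and by 13.4% of all genes.

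Between genotypes 3 members were called under DEHP and 0 under corn oil, and the difference between these counts was not tested. Under corn oil limma called 0 of 10 members in null against wild-type mice, where 1.19% of all genes were called (0.642% higher and 0.547% lower), with 3 at an unadjusted p below 0.05 (Agpat3, Lpin1 and Gpd1), as were 12.0% of all genes. Groups did not overlap in 4 of 10 members there (7.72% of all genes). Under DEHP 6 of 10 did not overlap (20.5% of all genes), and 6 had an unadjusted p below 0.05, as did 23.0% of all genes. Called under DEHP were 3 of 10, where 10.7% of all genes were (5.09% higher and 5.61% lower). Besides Mogat1 these were Dgat1, which was lower in nulls by -0.32 ± 0.09 (0.799-fold, adjusted p = 0.027), and Dgat2, which was higher by 0.29 ± 0.08 (1.23-fold, adjusted p = 0.0253). Under corn oil Dgat1 was also lower in nulls without overlap, by -0.17 ± 0.08 (adjusted p = 0.422), and Dgat2 differed by 0.01 ± 0.07 (adjusted p = 0.974). The interaction for Dgat1 was -0.15 ± 0.12 (adjusted p = 0.646), so that a genotype difference particular to DEHP was not shown for it. Dgat1 lost its call without WT-56, WT-57 or KO-122, where the difference was -0.28, -0.30 and -0.21 (adjusted p = 0.081, 0.0672 and 0.169). Dgat2 lost its call without WT-59, KO-121 or KO-123, at differences of 0.23, 0.29 and 0.26 (adjusted p = 0.0698, 0.0628 and 0.0921). Both were uncalled when only these 2 groups were in the model (adjusted p = 0.116 and 0.0768), as was Dgat2 after quantile normalization (adjusted p = 0.0717). Other members gained a call in this comparison under some settings. Agpat2, at 0.19 ± 0.07 (adjusted p = 0.0957), was called after quantile normalization (0.22, adjusted p = 0.0463), among genes above the median level (adjusted p = 0.0384) and with the offset of 16 (adjusted p = 0.0481). Gpd1 was called among genes above the median level (adjusted p = 0.0412), and Lpin1 with the 2 groups alone (adjusted p = 0.0175).

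Markers of other liver cells differed between genotypes under DEHP as well. Of 6 endothelial markers 5 were called as higher in nulls given DEHP than in wild-type mice given DEHP, where 5.09% of all genes were. The endothelial list summed to 1730 to 1880 in nulls and 1270 to 1430 in wild-type mice. Stellate cell markers, of which 2 of 6 were called as higher, summed to 2480 to 3310 in nulls and 2040 to 2240 in wild-type mice. Hepatocyte markers summed to 62900 to 67500 in nulls and 60600 to 62600 in wild-type mice. All 6 macrophage markers were above 0 in this difference and 1 was called, with overlapping sums of 1590 to 1960 in nulls and 1140 to 1780 in wild-type mice. Of the enterocyte list 1 of 5 was called, Mttp, which hepatocytes also use to load lipoproteins (0.31 ± 0.09, adjusted p = 0.0337). Under corn oil limma called 0 of the stellate, macrophage and endothelial markers. An unadjusted p below 0.05 was held there by 4 of 6 stellate, 4 of 6 macrophage and 1 of 6 endothelial markers, against 12.0% of all genes. All 6 of each list were above 0, with median differences of 0.33, 0.31 and 0.089. After DEHP in wild-type mice 1 endothelial, 1 stellate and 1 hepatocyte marker were called, each of 6, where 1.57% of all genes were called as lower. All were lower, Stab2 by -0.33 (adjusted p = 0.00337), Reln by -0.50 (adjusted p = 0.00762) and Cps1 by -0.34 (adjusted p = 0.019). The hepatocyte list, with 5 differences below 0 and 1 above, summed to 60600 to 62600 with DEHP and 64000 to 65200 with corn oil. In whole liver a change in the cells present and a change in RNA per cell cannot be told apart, and the part of these markers in the Dgat1 and Dgat2 differences was not tested.

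Of 43 other genes of glycerolipid and phospholipid synthesis that were listed, 40 were measured, and in wild-type mice DEHP raised 3 and lowered 2 of them (2.29% and 1.57% of all genes). An unadjusted p below 0.05 was held by 17 of the 40, against 16.8% of all genes. Chpt1, the cholinephosphotransferase that turns diacylglycerol into phosphatidylcholine, read 1670, 1560, 1760 and 1730 with DEHP, against 1270, 1080, 1050 and 1100 with corn oil. It rose by 0.58 ± 0.08 (adjusted p = 0.00061), without overlap. The cardiolipin synthase Crls1 rose by 0.36 ± 0.07 (adjusted p = 0.00897), and Gpd1l, a relative of Gpd1, by 0.34 ± 0.09 (adjusted p = 0.0366). Plpp1, a lipid phosphate phosphatase of the cell surface, read 165, 205, 164 and 179 with DEHP, against 294, 266, 252 and 249 with corn oil, and was lower by -0.58 ± 0.09 (adjusted p = 0.0015). Pemt, which makes phosphatidylcholine by methylation in liver, was lower by -0.30 ± 0.06 (adjusted p = 0.00904). Gpd1l lost its call in 6 of 8 fits without 1 animal, up to adjusted p = 0.111, and the other 4 kept theirs in all 8.

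None of these 40 genes was called by limma after DEHP in null mice, with 6 at an unadjusted p below 0.05, against 12.3% of all genes. In the interaction test 8 of the 40 had such a p, against 13.4% of all genes. Chpt1 read 963, 829 and 1050 in nulls given DEHP, against 1010, 898, 976 and 914 with corn oil (-0.01 ± 0.09). It was the single gene of the list with a called interaction (-0.59 ± 0.12, adjusted p = 0.0264). That call was lost in 9 of 15 fits without 1 animal (WT-53 to WT-56, WT-58, WT-59, KO-115, KO-117 or KO-122), up to adjusted p = 0.0755. Mogat2, the intestinal relative of Mogat1, read -0.01 in null and -0.03 in wild-type mice after DEHP (adjusted p = 0.979 and 0.933).

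**Figure D4:**
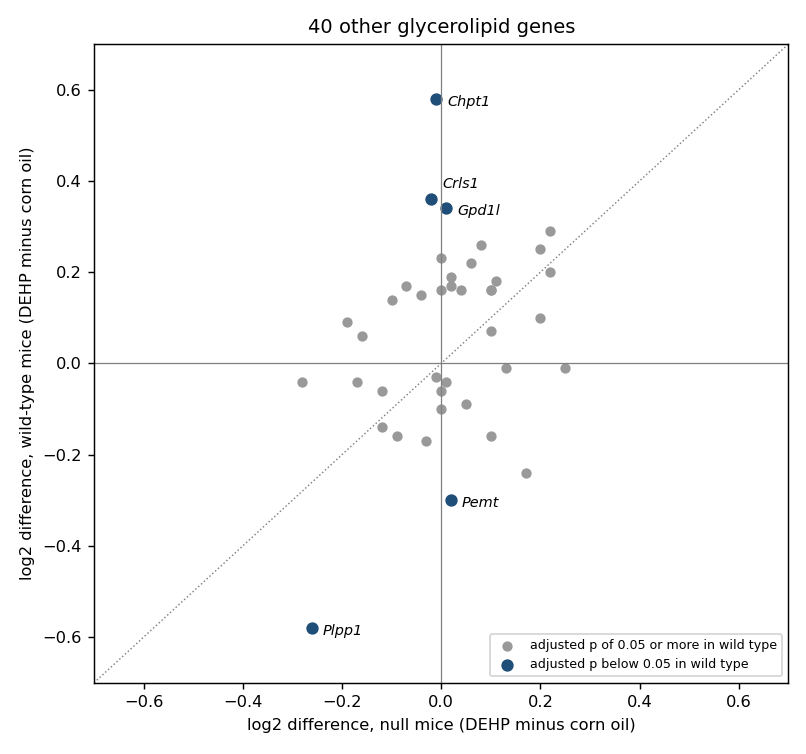
Log2 difference after DEHP of each of the 40 other glycerolipid genes (points), in null mice (horizontal axis) and wild-type mice (vertical axis), with the 5 genes called in wild-type mice in blue and equal differences on the dotted line. Chpt1, Crls1 and Gpd1l stand at 0.58, 0.36 and 0.34 in wild-type mice and near 0 in nulls, and Plpp1 at -0.58 and -0.26.

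Between genotypes under DEHP 2 of the 40 were called as higher and 8 as lower in nulls, against 5.09% and 5.61% of all genes. An unadjusted p below 0.05 was held by 18 of the 40, against 23.0% of all genes. Chpt1 was lower by -0.83 ± 0.09 (0.561-fold, adjusted p = 2.01e-05), and Gpat4, a glycerol-3-phosphate acyltransferase of the endoplasmic reticulum, by -0.37 ± 0.10 (adjusted p = 0.0291). The phosphatidylserine synthase Ptdss1, Gpd1l and Crls1 were lower by -0.36, -0.35 and -0.33, and Plpp3, a relative of Plpp1, was higher by 0.45 ± 0.11 (adjusted p = 0.0121). In the 7 fits that left out 1 animal, Gpat4 and Gpd1l each lost their call in 5, up to adjusted p = 0.182 and 0.114. Crls1 and Plpp3 each lost theirs in 1, and Chpt1 and Ptdss1 kept theirs in all 7. Without KO-122 the number called in the list was 3, and with these 2 groups alone in the model it was 4. The share of all genes called in those fits was not counted. Under corn oil limma called 0 of the 40, with 6 at an unadjusted p below 0.05, against 12.0% of all genes.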

How the data were processed

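Liver RNA of 15 mice was measured on single-colour arrays, 1 per animal. Per the labels' protocols, 300 ng of total RNA was labelled with biotin by the Affymetrix WT cDNA synthesis and amplification kit. The authors deposited linear intensity values, already on a common scale (array medians 44.4 to 47.5), and the sources used here do not give the summarization and normalization. Of 35494 probe sets, 43.6% held identical values in at least 2 arrays. No pair of arrays was identical.

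Log2 was taken without further normalization. By the platform annotation, 21789 probe sets carried a single symbol, 12084 carried none and 1621 were ambiguous. These name 19938 genes, and where a gene had more than 1 probe set (999 genes) the brightest on average stood for it. Group means were fitted jointly to the 15 arrays (limma 3.58.1 in R 4.3.3, residual degrees of freedom 11, prior 4.68), with Benjamini-Hochberg adjustment across genes, and the fit was tested on simulated data. The labels give no batch. Members and gene lists were chosen with earlier results of these data known. All 10 members are named, with Ppara, up to 8 called genes per list and the genes most correlated with a member. The number of arrays limits the precision. Sequences are RefSeq's. Python 3.11.15, pandas 2.3.3 and matplotlib 3.10.9 were used.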

Additional observations from a re-analysis of the deposited data

Results flagged for a closer look

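Mogat1 differed in its response to DEHP between genotypes, the nulls minus the wild-type mice giving -3.31 on the log2 scale in the interaction test. Chpt1 did so by -0.59. Among the 33 groups of 4 arrays formed by the 10 members and Ppara, a single animal stood apart in 2 by Dixon's test, which chance alone reaches in about 1 of 20. DEHP-treated wild-type animal WT-59 was low in Dgat2, at a log2 intensity of 11.69, and wild-type control WT-55 was high in Gpam, at 10.31, in a group whose SD was 0.03.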

How the results depend on the processing

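No paired analysis was possible because the groups share no replicate numbers. For wild-type mice after DEHP, 1 member was called as reported, Mogat1. The count was 2 with quantile normalization or array weights, which added Dgat2. It was also 2 with only the 2 groups in the model or without KO-116 and KO-118, which added Lpin1. An intensity trend or an offset of 16 gave 3, adding Dgat2 and Gpd1. Among genes above the median level the 2 called were Dgat2 and Gpd1. Mogat1 lies below that level and was not tested there in any comparison. For null mice it was 2 with a trend, with the offset and among genes above the median, against 0. For the genotypes under corn oil it was 1 with the same 3 settings, against 0. The interaction gave 0 among genes above the median, since Mogat1 lies below it and was not tested there. Leaving out 1 animal gave 1 call in wild-type mice, 0 in null mice, 0 between genotypes under corn oil, 1 in the interaction and 2 to 3 between genotypes under DEHP, where the other settings gave 2 to 4 against 3. The share of all genes called in these other fits was not counted. Differences near 0 changed sign. Quantile normalization gave -0.04 for Agpat2 in wild-type mice, -0.06 for Dgat2 in null mice and -0.01 for Dgat2 between genotypes under corn oil. Without KO-116 and KO-118 the values were 0.07 for Agpat2 and -0.09 for Dgat2 between genotypes under corn oil, 0.07 for Lpin2 in null mice, and -0.04 for Gpd1 and 0.51 for Lpin1 in the interaction, where array weights gave 0.01 for Lpin1. Leaving out 1 animal, ranges that crossed 0 were -0.06 to 0.02 for Agpat2 and -0.03 to 0.05 for Dgat2 between genotypes under corn oil, -0.01 to 0.07 for Dgat2 and -0.10 to 0.01 for Lpin2 in null mice, -0.03 to 0.22 for Gpam and -0.09 to 0.23 for Lpin2 in wild-type mice, and -0.03 to 0.29 for Lpin2 between genotypes under DEHP. In the interaction they were -0.06 to 0.07 for Agpat3, -0.08 to 0.19 for Gpam, -0.30 to 0.13 for Lpin1, -0.27 to 0.05 for Lpin2 and -0.07 to 0.02 for Lpin3. None of these was called in any of those fits, and the cause was not tested.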

Other observations

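Of 11 listed regulators of the pathway and partners of the lipins, 1 rose and 1 fell after DEHP in wild-type mice (2.29% and 1.57% of all genes). There 4 of the 11 had an unadjusted p below 0.05, against 16.8% of all genes. In null mice limma called 0, with 0 at an unadjusted p below 0.05, against 12.3% of all genes. The interaction test called 0 of the 11, with 3 at an unadjusted p below 0.05, against 13.4% of all genes. Pparg, the nuclear receptor that drives fat storage in adipocytes, read 124, 156, 146 and 158 in wild-type mice given DEHP, against 98.7, 87, 111 and 113 with corn oil. The rise was 0.51 ± 0.12 (adjusted p = 0.0199), and 5 of 8 fits that left out 1 animal did not call it. In null mice Pparg read 241, 254 and 210 with DEHP, against 276, 221, 218 and 191 with corn oil. Every null was thus above every wild-type animal, by 1.14 ± 0.12 under corn oil (2.2-fold, adjusted p = 5.28e-05) and by 0.69 ± 0.12 under DEHP (adjusted p = 0.00215). The interaction for Pparg was -0.45 ± 0.17 (adjusted p = 0.244), so that unequal responses were not shown. Mogat1, as given above, was not called between genotypes under corn oil and was lower in nulls under DEHP. The part of Pparg in the Mogat1 values was not tested. Foxo1, a transcription factor held in check by insulin, fell by 0.27 ± 0.07 on the log2 scale in wild-type mice (adjusted p = 0.0351), and 7 of 8 fits that left out 1 animal did not call it. Its interaction was 0.21 ± 0.10 (adjusted p = 0.371). Bscl2, which encodes the lipid droplet protein seipin, was lower in nulls under DEHP by -0.35 ± 0.07 (adjusted p = 0.00465).

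By correlation of log2 intensity over the 15 arrays, the gene most like Gpd1 was Acsf2, an acyl-CoA synthetase family gene (r = 0.945, and 0.779 within groups), which was called as higher after DEHP in both genotypes, by 0.60 in null and 0.94 in wild-type mice (adjusted p = 0.0242 and 5.27e-05). The closest gene was Gckr, the glucokinase regulator, for Dgat2 (0.929), Iah1 for Dgat1 (0.939), Pgm1 for Gpam (0.883), Prss52 for Agpat2 (0.922), AU040320 for Agpat3 (0.942), Snrk for Lpin2 (0.843) and Grm7 for Lpin3 (0.901). All these arrays share their scaling and their groups.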
